A study of Mus musculus with 4 samples.

Results

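The genes described here are 9 components and brakes of phosphoinositide 3-kinase (PI3K) signalling, taken by symbol from the count tables: the catalytic subunits Pik3ca, Pik3cb, Pik3cd and Pik3cg, the regulatory subunits Pik3r1 and Pik3r5, the inhibitor Pik3ip1, and the lipid phosphatases Inpp5d and Inpp4b. All 9 were among the 31748 gene symbols of the tables, and all 9 were among the 12752 genes with enough counts to be tested. The libraries were labelled as CD4+ T cells of the spleen of 8-week-old mice that carried the TEa receptor transgene, a T cell receptor for a foreign class II peptide. WT libraries (genotype TEaWT, 2 libraries) were compared with KO libraries (genotype TEaMthfd2 KO, 2 libraries), in which Mthfd2, a mitochondrial enzyme of folate metabolism, was targeted. In both groups the T cells had been isolated by magnetic positive selection and kept for 3 days with mitomycin-treated antigen-presenting cells from the spleens of F1 (BALB/c x C57BL/6) mice. The labels do not say how Mthfd2 was deleted, in which cells, or whether replicates are separate mice or cultures. The p-values therefore reflect only how much these 4 libraries vary, and that variation may be technical.

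PI3K enzymes add a phosphate to a membrane lipid and so make PIP3, a signal that recruits kinases such as AKT to the membrane after antigen receptor and CD28 engagement. Class IA enzymes pair a catalytic subunit of the alpha, beta or delta kind with a regulatory subunit such as that of Pik3r1, and lymphocytes rely mainly on the delta kind. The class IB enzyme pairs the gamma subunit of Pik3cg with an adaptor such as that of Pik3r5 and is known for its activation by chemokine receptors. PIP3 is removed by lipid phosphatases, among them SHIP1, the product of Inpp5d, and INPP4B acts on the lipid that SHIP1 leaves. PIK3IP1 is a membrane protein that binds the catalytic subunit and restrains it.

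Library totals ranged from 14191401 to 15955863 counts. Mthfd2 was detected in every library, at 280 and 280 CPM (the usual unit of a count relative to the library total, here after TMM adjustment) in WT and 222 and 252 CPM in KO libraries (log2 fold change -0.24, edgeR adjusted p = 0.324), so its count does not check the labels and the directions below rest on them. Cd8a had between 3.10 and 4.00 times the counts of Cd4, so the counts go against a pure CD4+ population. B cell markers were present in all libraries, and 5 of 12 were called lower in KO: their summed level was 1499 and 914 CPM in WT and 535 and 477 CPM in KO libraries. Of 7 MHC class II genes 6 were called lower, with sums of 3900 and 2325 CPM against 1232 and 1068 CPM. Of 7 T cell markers 3 were called higher, with sums of 1234 and 1363 CPM in WT and 1901 and 1921 CPM in KO libraries. Of 12 myeloid and dendritic cell markers 6 had enough counts to be tested and 0 were called, with sums of 51.1 and 23.3 CPM against 16.9 and 13.2 CPM. Of the 6 tested, 5 had a negative log2 fold change, with a median of -1.35. Zbtb46, the largest part of the sum, had 26.1 and 11.4 CPM in WT and 6.86 and 4.73 CPM in KO libraries. In every library 2 of the 12 were at 0. Of 5 NK markers, Klrk1, which CD8 T cells also express, had 17.9 and 37.9 CPM in WT and 107 and 82.0 CPM in KO libraries and made up the difference in their sum (86.2 and 98.5 against 155 and 142 CPM), while the NK gene Ncr1 had 2.75 and 2.70 CPM against 0.778 and 0.287 CPM. Of the 4 NK markers tested, 1 was called higher. Plasma cell markers summed to 314 and 277 CPM against 231 and 203 CPM, and 2 of the 5 tested were called lower. Most of that sum was Xbp1 (177 and 206 against 171 and 157 CPM), while Jchain had 62.9 and 17.4 against 4.45 and 2.15 CPM. Prdm1 did not fall (29.3 and 23.3 against 38.3 and 29.0 CPM). Red cell and platelet markers summed to 127 and 32.4 CPM against 7.57 and 3.23 CPM, and 2 of the 4 tested were called lower. In such bulk libraries a change in the share of a cell type and a change in RNA per cell cannot be told apart, and the part of these markers in the results below was not tested.

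Pik3r1 and Pik3ip1 rose in KO libraries, and 7 of the 9 genes were not called. Of all tested genes, 3.95% were called in either direction and 2.39% were called higher, against 22.2% (2 of 9) of this group. In the other direction 1.56% of all tested genes were called lower, against 0 of the 9. The 9 genes were chosen with earlier results of these data known, so these shares cannot show an enrichment. The class IB pair Pik3cg and Pik3r5 had folds of 2.10 and 1.77 but missed the threshold on the adjusted p. The main lymphocyte subunit Pik3cd and both phosphatases had folds between 1.11 and 1.25, none called. At an unadjusted p under 0.05, 4 of the 9 genes were higher and 0 lower, beside 25.5% of all tested genes in either direction. The median log2 fold change of the 9 genes was 0.32, beside a median of -0.0026 over all tested genes. In 8 of the 9 genes the KO libraries did not overlap the WT libraries, beside 59.9% of all tested genes. Both KO libraries were above both WT libraries in 7 genes (29.8% of all tested genes) and below them in 1 (30.1%).

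**Figure D1:**
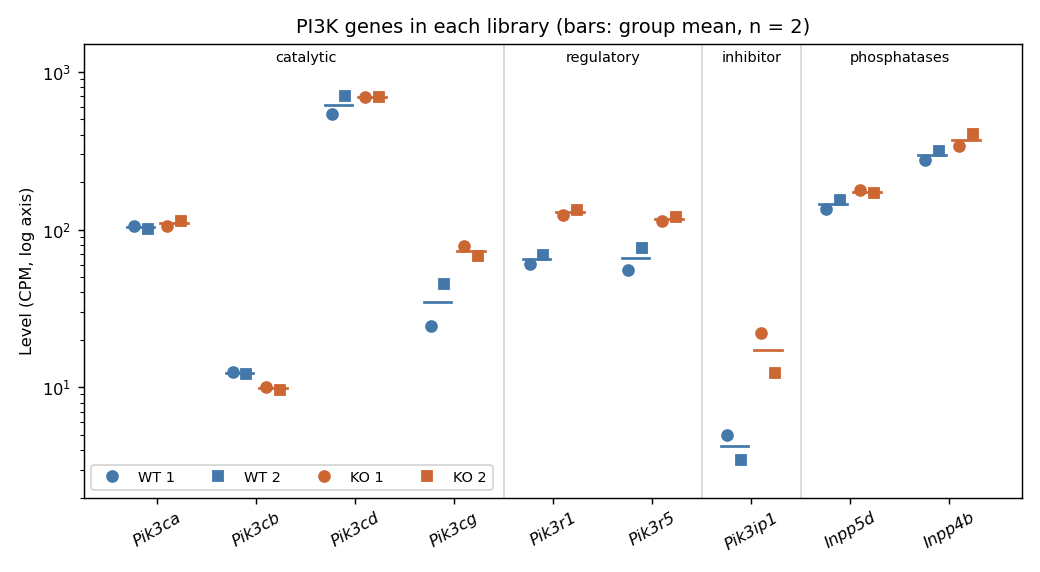
Level of each of the 9 genes in each library in CPM on a log axis, with WT in blue, KO in orange, circles for replicate 1, squares for replicate 2 and short bars for group means (n = 2). Pik3ip1, Pik3r1, Pik3cg and Pik3r5 stand apart between the groups, while Pik3cd spans 541 to 698 CPM with the groups mixed.

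The promoters of the 2 genes that passed the test are shown because both genes moved the same way. Each window runs from 250 bases before to 50 bases after an annotated RefSeq start (assembly GRCm38.p6), is written 5′ to 3′ on the gene's strand, and has the matches to a searched motif, on either strand, in capitals (CACGC is GCGTG read on the other strand). The motifs, searched on both strands, were GTAAACA (bound by FOXO factors, which AKT keeps out of the nucleus), CACGTG (an E-box, bound by MYC) and the hypoxia factor core ACGTG or GCGTG, which overlaps the E-box. The third sequence belongs to an inner start of Pik3r1, a gene that encodes a long and shorter regulatory proteins from separate starts, and the fourth is the window of Pik3cg that held the single FOXO match.
Pik3ip1 (chr11:3330481-3330780, plus strand): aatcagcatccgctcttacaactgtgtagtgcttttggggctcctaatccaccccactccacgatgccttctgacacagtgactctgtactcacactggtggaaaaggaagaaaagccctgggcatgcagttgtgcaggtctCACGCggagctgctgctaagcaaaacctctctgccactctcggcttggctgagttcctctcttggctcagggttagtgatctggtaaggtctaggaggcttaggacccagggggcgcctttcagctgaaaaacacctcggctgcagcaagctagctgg
Pik3r1, outer start (chr13:101768168-101768467, minus strand): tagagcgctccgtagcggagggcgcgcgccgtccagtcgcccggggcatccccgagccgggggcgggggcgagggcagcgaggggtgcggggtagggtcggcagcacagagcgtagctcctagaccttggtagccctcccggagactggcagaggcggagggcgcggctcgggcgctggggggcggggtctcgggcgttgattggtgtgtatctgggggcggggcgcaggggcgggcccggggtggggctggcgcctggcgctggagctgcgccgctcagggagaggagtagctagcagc
Pik3r1, inner start (chr13:101692581-101692880, minus strand): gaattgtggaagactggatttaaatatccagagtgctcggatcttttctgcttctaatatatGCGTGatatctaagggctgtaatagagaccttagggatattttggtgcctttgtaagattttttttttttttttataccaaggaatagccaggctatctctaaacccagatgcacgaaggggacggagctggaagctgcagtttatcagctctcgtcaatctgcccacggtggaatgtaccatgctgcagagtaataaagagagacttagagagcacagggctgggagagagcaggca
Pik3cg (chr12:32208421-32208720, minus strand): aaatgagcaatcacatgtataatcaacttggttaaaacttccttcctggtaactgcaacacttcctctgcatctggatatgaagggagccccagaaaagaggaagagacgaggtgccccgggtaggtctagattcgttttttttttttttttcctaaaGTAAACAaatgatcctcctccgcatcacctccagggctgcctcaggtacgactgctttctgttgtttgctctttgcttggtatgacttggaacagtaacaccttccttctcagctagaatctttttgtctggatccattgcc

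The 9 genes had 13 such windows. The hypoxia core was found in 7 of the 13, among them that of Pik3ip1 and the inner window of Pik3r1, and in 43.8% of all 32851 windows of the table. The FOXO motif was found in 1 of 13 windows and in 3.65% of all windows, and the E-box in 0 of 13 and in 7.15%. The outer window of Pik3r1 held no match to any of the 3 motifs. A match is a string of letters and not a measured site.

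Among the class IA catalytic subunits, no gene was called. Pik3cd, which encodes p110 delta, the main catalytic subunit of lymphocytes (chromosome 4, 149649168 to 149702571, GRCm38, minus strand), had 541 and 698 CPM in WT and 688 and 693 CPM in KO libraries. WT replicate 1 was the low library, and the KO values lay within the range of the WT pair. The log2 fold change was 0.16 ± 0.17 (SE, n = 2 per group, edgeR quasi-likelihood test, Benjamini-Hochberg adjusted p = 0.597), and without WT replicate 1 it was -0.011. Its 95% interval ran from 0.845-fold to 1.47-fold.

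Pik3ca, which encodes p110 alpha, the subunit known for insulin and growth factor signalling (chromosome 3, 32397671 to 32468486, plus strand), had 105 and 101 CPM in WT and 106 and 113 CPM in KO libraries. The 4 values were close, and the interval of the fold ran from 0.830 to 1.35 (log2 fold change 0.08 ± 0.15, adjusted p = 0.760 by edgeR). Pik3cb, which encodes p110 beta (chromosome 9, 99036654 to 99140621, minus strand), was scarce, with 12.5 and 12.2 CPM in WT and 10.0 and 9.68 CPM in KO libraries. It was the only one of the 9 genes with a negative value (-0.32 ± 0.24, adjusted p = 0.445 by edgeR), and although both KO libraries lay under both WT libraries the interval of the fold, 0.536 to 1.20, held no change.

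In class IB, Pik3cg, which encodes p110 gamma (chromosome 12, 32173473 to 32208659, minus strand), had 24.6 and 45.3 CPM in WT and 78.8 and 68.0 CPM in KO libraries. Both KO libraries lay above both WT libraries, while the WT libraries differed from each other nearly as much as the higher of them differed from KO. The log2 fold change was 1.07 ± 0.29 with an adjusted p of 0.0830 (edgeR), so it was not called. Without WT replicate 1 it was 0.70 (adjusted p = 0.0928), and without WT replicate 2 it was 1.58 (adjusted p = 0.00111).

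Pik3r5, which encodes p101, the adaptor through which p110 gamma answers G protein subunits (chromosome 11, 68432121 to 68497849, plus strand), had 55.3 and 76.6 CPM in WT and 114 and 120 CPM in KO libraries. The groups did not overlap, and WT replicate 1 was again the lowest library. The log2 fold change was 0.82 ± 0.20 (edgeR adjusted p = 0.0645, not called), 0.61 without WT replicate 1 (adjusted p = 0.0973) and 1.08 without WT replicate 2 (adjusted p = 0.00381). DESeq2 called both class IB genes, Pik3cg with an adjusted p of 0.00873 and Pik3r5 with 0.00445, and the fit with a replicate block called Pik3r5 (adjusted p = 0.0401). The other adaptor of p110 gamma, Pik3r6, was near the limit of detection, with 24 and 32 counts in WT and 33 and 23 counts in KO libraries.

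Pik3r1 encodes the main class IA regulatory subunit, p85 alpha, which stabilises the catalytic subunit and docks it to phosphorylated receptors (chromosome 13, 101680563 to 101768217, minus strand). It had 60.8 and 68.7 CPM in WT and 123 and 134 CPM in KO libraries. The libraries of each group were close together, and every KO library was well above every WT library. It rose 1.98-fold (log2 fold change 0.99 ± 0.16, edgeR adjusted p = 0.0397), with a 95% interval of the fold from 1.53 to 2.58. Gene counts do not separate its long from its shorter transcripts. It was no longer called when a KO library was left out, at 1.05 without KO replicate 1 (adjusted p = 0.297) and 0.93 without KO replicate 2 (adjusted p = 0.196), fits in which edgeR called 0 of all genes while 1605 and 2161 had an unadjusted p under 0.05.

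Pik3ip1, the PI3K-interacting protein, is known as an inhibitor that resting T cells express and lose from the surface on activation (chromosome 11, 3330401 to 3342971, plus strand). It was the scarcest of the 9 genes in WT libraries, with 5.01 and 3.45 CPM (82 and 51 counts), and had 21.9 and 12.4 CPM (310 and 173 counts) in KO libraries. The lower KO library was above the higher WT library, but the KO libraries differed from each other by more than the libraries of Pik3r1 did. It rose 4.05-fold (2.02 ± 0.38, edgeR adjusted p = 0.0437), with an interval of the fold from 2.16 to 7.56. Of its annotated exon bases, 2.13% are shared with Gm12592 on the other strand, which had between 10 and 15 counts per library. Its adjusted p was over the threshold with upper quartile factors (adjusted p = 0.0530), library size only (0.0522) and limma-voom (0.0503), and without KO replicate 1 (1.55, adjusted p = 0.309) or KO replicate 2 (2.37, adjusted p = 0.147).

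**Figure D2:**
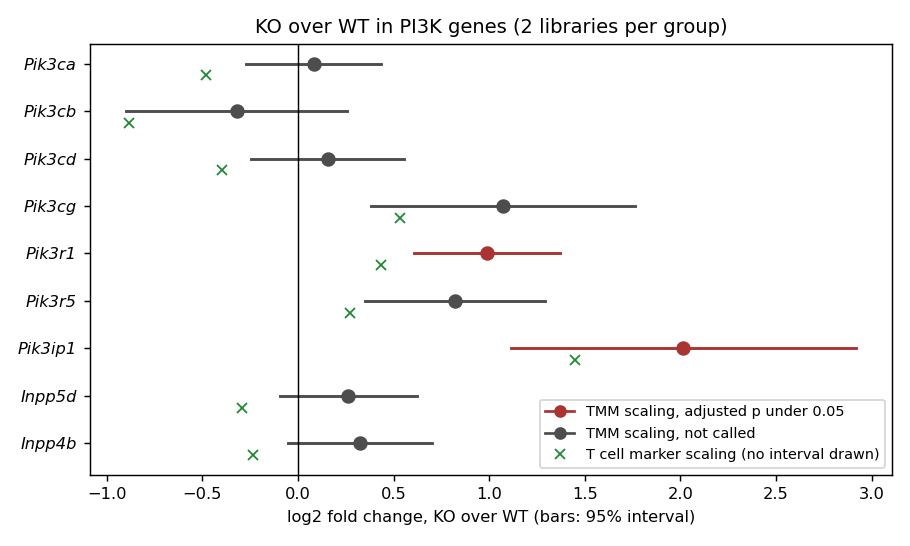
Log2 fold change of KO over WT for the 9 genes, with dots and 95% intervals from edgeR with TMM scaling (red where the adjusted p is under 0.05) and green crosses for the value when libraries are scaled to 7 T cell markers. Pik3ip1 at 2.02 and Pik3r1 at 0.99 are called, and each cross lies to the left of its dot.

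Inpp5d, which encodes SHIP1 (chromosome 1, 87620312 to 87720507, plus strand), had 134 and 154 CPM in WT and 177 and 169 CPM in KO libraries. The groups did not overlap, yet the difference did not pass the test (0.26 ± 0.15, edgeR adjusted p = 0.311), and the interval of the fold was 0.938 to 1.54. Inpp4b (chromosome 8, 81342556 to 82127914, plus strand) had 274 and 316 CPM in WT and 338 and 401 CPM in KO libraries. Here too the groups were separate by a narrow margin, with a log2 fold change of 0.32 ± 0.16 (edgeR adjusted p = 0.251) and an interval of the fold from 0.963 to 1.63.

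Markers of T cells were higher in the same KO libraries, so the 9 genes were also compared after scaling each library to its summed counts of 7 T cell markers, a scaling chosen after the data were seen. It shifted the median log2 fold change of all tested genes to -0.56. Pik3ip1 was still called higher (1.45, edgeR adjusted p = 0.0269), whereas Pik3r1 was at 0.43 (adjusted p = 0.0691), Pik3cg at 0.53 (adjusted p = 0.133) and Pik3r5 at 0.27 (adjusted p = 0.256). Pik3cb was called lower in that fit (-0.88, edgeR adjusted p = 0.0365), as were 4898 of all 12752 tested genes. The values of Pik3ca, Pik3cd, Inpp5d and Inpp4b turned negative, at -0.48, -0.39, -0.29 and -0.23, none called. The T cell markers themselves include Cd3e, which rose under TMM scaling, and every gene's value on this scale is relative to them. The markers did not move alike: Cd3g had 89.3 and 109 CPM in WT and 253 and 223 CPM in KO libraries, while 1 of the 7 had a negative log2 fold change.

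**Figure D3:**
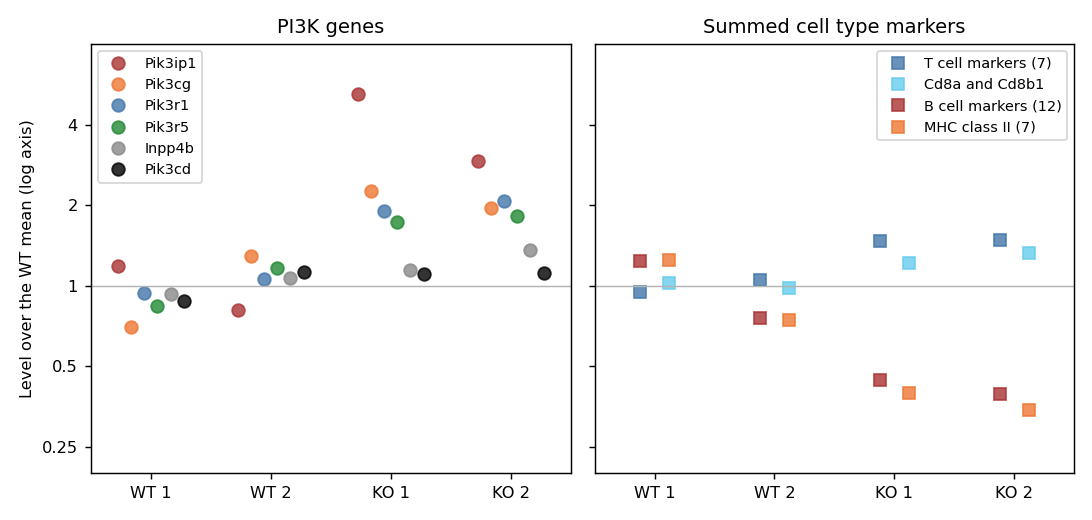
Level of 6 of the genes (left) and summed level of cell type markers (right) in each library, divided by the mean of the WT libraries, on a log axis. Pik3ip1, Pik3cg, Pik3r1 and Pik3r5 are higher in both KO libraries. The sum of the T cell markers is higher by a smaller factor, which does not hold for each marker alone, and B cell and MHC class II sums are lower.

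To compare levels between genes, CPM was divided by the length of all annotated exons of a gene in kilobases. On this scale Pik3cd was the highest of the 9 genes, at 99.0 ± 17.7 CPM per kilobase in WT libraries and 110 ± 0.602 in KO libraries (SD, n = 2 each). In WT libraries it was followed by Inpp4b (22.6 ± 2.25), Inpp5d (19.0 ± 1.87), Pik3r5 (11.9 ± 2.71), Pik3ca (11.4 ± 0.294), Pik3r1 (6.43 ± 0.555), Pik3cg (4.14 ± 1.74), Pik3cb (1.71 ± 0.0289) and Pik3ip1 (0.990 ± 0.258). The only neighbours in this order whose libraries overlapped were Pik3r5 and Pik3ca. In KO libraries Pik3r1 (12.8 ± 0.749) stood beside Pik3ca (12.1 ± 0.600), with overlapping libraries, and Pik3ip1 (4.02 ± 1.58) stood above Pik3cb (1.37 ± 0.0356).

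Pik3cd made up most of the class I catalytic level per length in every library, with 84.2% and 85.9% in WT and 83.1% and 83.5% in KO libraries. The share of Pik3cg was 2.84% and 4.14% in WT libraries. In KO libraries it was 7.07% and 6.08%, a difference of 3.08 percentage points between group means with no overlap. Pik3ca held 11.3% and 8.61% in WT against 8.79% and 9.41% in KO libraries, with the groups mixed, and Pik3cb held between 1.01% and 1.69%. These shares do not depend on how libraries are scaled, but they were not tested, since an exact permutation test of 2 libraries against 2 cannot give a two-sided p under 0.333.

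The level of Pik3r1 per length, divided by the sum of Pik3ca, Pik3cb and Pik3cd, was 0.0605 and 0.0549 in WT and 0.0994 and 0.107 in KO libraries. The ratio leaves out the other class IA regulatory genes, such as Pik3r2 (25.4 and 39.0 CPM in WT, 50.0 and 49.1 CPM in KO libraries). The mean ratio was 1.79 times as high in KO, a value that does not depend on library scaling. The ratio of Pik3ip1 to the same sum was 0.0117 and 0.00649 in WT and 0.0417 and 0.0233 in KO libraries, 3.57 times as high in the mean. For the class IB partners, Pik3r5 over Pik3cg was 3.42 and 2.57 in WT and 2.19 and 2.67 in KO libraries, with the groups overlapping.

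**Figure D4:**
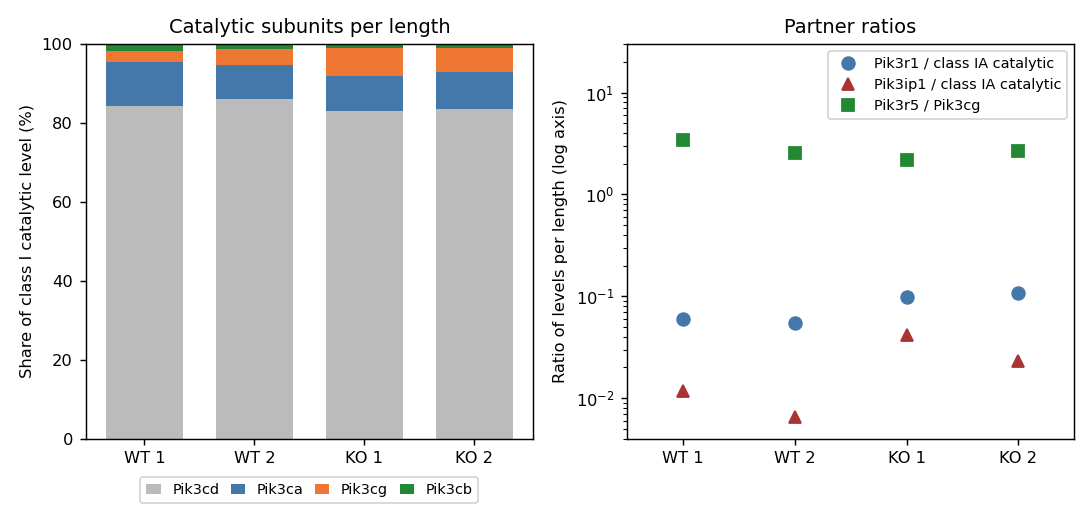
Left, share of each catalytic subunit in the summed class I catalytic level per exon length in each library, in percent. Right, ratios of partner genes per length on a log axis: Pik3r1 and Pik3ip1 over the class IA catalytic sum are higher in both KO libraries, and Pik3r5 over Pik3cg overlaps between groups.

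Of the wider pathway, 107 further genes in 7 lists were tested, and 6 rose and 2 fell (7.48% called, beside 3.95% of all tested genes). The lists were chosen with earlier results of these data known, so these shares cannot show an enrichment. The median log2 fold change of the 107 genes was 0.12. The loss of all edgeR calls without either KO library, given above for Pik3r1, holds for these lists too. Among 8 other PI3K subunits and adaptors, 0 were called by edgeR (2 had an unadjusted p under 0.05, both higher), and among 23 other phosphoinositide phosphatases 0 were called (4 had an unadjusted p under 0.05, 2 in each direction). The 12 enzymes that make the lipid substrates (kinases and a synthase) also gave 0 calls by edgeR, with 2 higher at an unadjusted p under 0.05 and a median of -0.06.

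Among 20 receptors, kinases and adaptors upstream of PI3K, 1 rose (5% higher, beside 2.39% of all tested genes). It was Cd3e, a chain of the T cell receptor complex, which had 151 and 175 CPM in WT and 287 and 284 CPM in KO libraries (0.81 ± 0.15, edgeR adjusted p = 0.0413). Leaving out WT replicate 1 ended this call (0.71, adjusted p = 0.0707), and on the T cell marker scale, which holds Cd3e itself, the value was 0.25 (adjusted p = 0.193).

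Among 19 proteins that bind or act on PIP3, 1 rose and 2 fell (5.26% and 10.5%, beside 2.39% and 1.56% of all tested genes). Plekha2, which encodes TAPP2, an adaptor for the lipid that SHIP1 makes from PIP3, had 82.5 and 105 CPM in WT libraries, and rose to 195 and 186 CPM in KO libraries (1.03 ± 0.17, edgeR adjusted p = 0.0400), but was not called on the T cell marker scale (0.48, adjusted p = 0.0504). Plekha1, which encodes the related adaptor TAPP1, had 59.0 and 36.2 CPM in WT libraries, and fell to 18.7 and 19.3 CPM in KO libraries (-1.32 ± 0.26, adjusted p = 0.0455 by edgeR). The pair of adaptors thus moved in opposite directions. Swap70, a PIP3-binding protein abundant in B cells, was at 353 and 183 CPM in WT libraries and fell to 88.0 and 89.3 CPM in KO libraries (-1.60 ± 0.30, edgeR adjusted p = 0.0434). The summed B cell markers given above were also lower in KO libraries and higher in WT replicate 1 than in WT replicate 2, as were Swap70 and Plekha1, and the part of B cells in both falls was not tested. Plekha1 was no longer called without WT replicate 1 (-0.92, adjusted p = 0.0606), nor on upper quartile factors, library size only or limma-voom (adjusted p between 0.0506 and 0.0534), and Swap70 was not called on upper quartile factors (adjusted p = 0.0524). Akt1, the kinase that PIP3 recruits, had 233 and 311 CPM in WT and 260 and 293 CPM in KO libraries (0.03 ± 0.18, edgeR adjusted p = 0.951), with a sign that turned in 4 alternatives. On the T cell marker scale Akt1 was called lower (-0.53, edgeR adjusted p = 0.0390), as were 4898 of all 12752 tested genes. The median log2 fold change of all tested genes on that scale was -0.56, close to the value of Akt1.

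Among 15 AKT substrates and brakes, 1 rose (6.67% higher, beside 2.39% of all tested genes). It was Cdkn1b, which encodes the cell cycle inhibitor p27 and is raised by FOXO factors and degraded downstream of AKT. Cdkn1b went from 52.0 and 37.8 CPM in WT to 160 and 112 CPM in KO libraries (1.59 ± 0.24, edgeR adjusted p = 0.0363). Foxo1, a transcription factor held inactive by AKT, had 98.2 and 105 CPM in WT and 126 and 123 CPM in KO libraries (0.29 ± 0.15, edgeR adjusted p = 0.261).

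Of 11 genes that FOXO factors are known to raise, 3 rose, 0 fell and 8 were not called, with a median of 0.62. The share called higher was 27.3%, beside 2.39% of all tested genes, whose median was -0.0026. Of the 11 genes, 1 had a negative log2 fold change. Ccng2, an atypical cyclin linked to cell cycle arrest, had 17.5 and 10.0 CPM in WT libraries, and rose to 143 and 96.3 CPM in KO libraries (3.11 ± 0.33, edgeR adjusted p = 0.0199). Bcl2l11, which encodes the death-promoting protein BIM, had 103 and 86.1 CPM in WT libraries, and rose to 209 and 201 CPM in KO libraries (1.12 ± 0.16, edgeR adjusted p = 0.0326). On the T cell marker scale Ccng2 and Bcl2l11 were still called. Klf2, a factor of quiescent T cells, had 68.2 and 36.2 CPM in WT and 89.3 and 109 CPM in KO libraries (0.92 ± 0.30, edgeR adjusted p = 0.122), and was called without WT replicate 1 (1.46, adjusted p = 0.0179). Without WT replicate 2 it was 0.54 (adjusted p = 0.0817), and on the T cell marker scale 0.34 (adjusted p = 0.416).

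**Figure D5:**
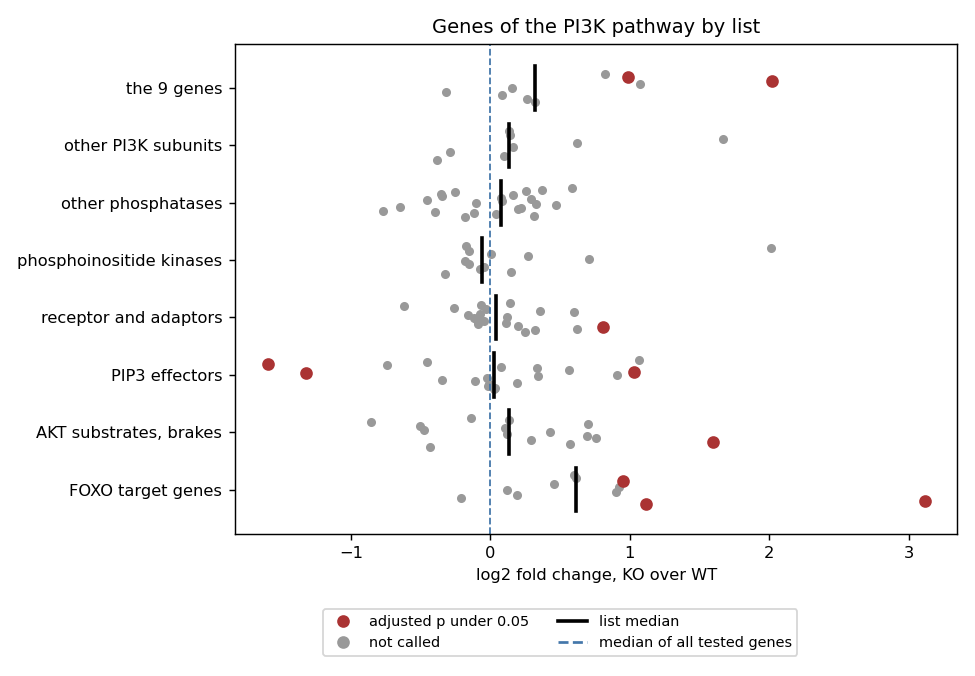
Log2 fold change of KO over WT for each tested gene, by list, with called genes in red, list medians as black bars and the median of all tested genes as a dashed line. Called genes lie in the receptor, PIP3 effector, AKT and FOXO target lists and among the 9 genes, and the FOXO target list has the highest median, 0.62.

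Pik3r1 had the smallest p-value of the 9 genes. Among the 5 genes with the most similar pattern over the 4 libraries, by the Euclidean distance of centred log2 CPM, were Rfx3 (distance 0.0575), Zfp654 (0.0734), Unc119b (0.0754) and Jam3 (0.0906). Jam3 was near the limit of detection, with 0.489 and 0.608 CPM in WT and 1.20 and 1.22 CPM in KO libraries. It was not called (edgeR adjusted p = 0.303). With 4 libraries such likeness is common, and 183 genes lay within a distance of 0.3 of Pik3r1.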

How the data were processed

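Total RNA without ribosomal RNA was sequenced in 4 libraries. The authors deposited raw counts per gene symbol, 1 table per library. Subread 2.0.1, featureCounts, DESeq2 1.30.1, R 4.0.4 and build mm10 are named in the submitters' processing notes. For annotation release, strand and multi-mapping reads, the setting was not given in the sources used here. The counts were fitted in R 4.3.3 with edgeR 4.0.16: filterByExpr (minimum count 10, minimum total 15), TMM factors and the quasi-likelihood test on all 4 libraries, with Benjamini-Hochberg adjustment over all 12752 genes and calls at an adjusted p under 0.05. DESeq2 1.42.0 and limma 3.58.1 (voom) served as alternatives. Replicates differed by more than counting error (chi-square per degree of freedom 37.4 for WT and 15.2 for KO). On the first principal component WT replicates 1 and 2 lay at -65.1 and -19.6, and KO replicates 1 and 2 at 43.8 and 40.9. It thus separated the groups as well as the WT replicates. Tested on simulated counts of this comparison, with 12468 genes passing the filter, the fit called 26.0% of 96 genes changed 2-fold, 85.7% of 98 changed 4-fold and 15 of 12274 unchanged genes. Coordinates and exon lengths come from GENCODE M21 (GRCm38, the assembly called mm10), and promoters from RefSeq. The members, lists and tests were chosen with earlier results of these data known. Every library and every gene symbol entered the fit. The text names all 9 members, list genes that passed the test, Akt1, Foxo1 and Klf2, and genes among the 5 nearest in pattern to the member with the smallest p; a few genes under this rule are not reported here.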

Additional observations from a re-analysis of the deposited data

How the results depend on the processing

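As reported, edgeR called 305 genes higher and 199 lower in KO, among them 2 and 0 of the 9 PI3K genes and 6 and 2 of the pathway list genes. With no filter on low counts the calls were 737 higher and 682 lower, with 4 PI3K and 15 pathway genes higher. DESeq2 gave 854 and 779, with 4 PI3K and 17 pathway genes higher. Upper quartile factors gave 122 lower, 1 PI3K gene higher and 0 pathway genes lower, while library size only and limma-voom each gave 1 PI3K gene higher and 1 pathway gene lower. The T cell marker scaling, chosen after seeing the data, gave 4898 genes lower, 1 PI3K gene higher (Pik3ip1) and 1 lower (Pik3cb), and 3 pathway genes higher and 40 lower. That scaling turned the log2 fold changes of Pik3ca (-0.48), Pik3cd (-0.39), Inpp5d (-0.29), Inpp4b (-0.23), Akt1 (-0.53) and Foxo1 (-0.27), and library size only turned Akt1 (-0.024).

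Leaving out 1 library at a time gave 0 to 1432 genes higher, 0 to 1127 lower, 0 to 4 PI3K genes higher, and 0 to 19 pathway genes higher and 0 to 5 lower. The 0 arose without either KO library, where edgeR had 1605 and 2161 genes at an unadjusted p under 0.05, and the largest counts arose without WT replicate 2. The lone library of a group is assumed there to vary like the other group. In these fits Pik3cd ranged from -0.011 to 0.36 and Akt1 from -0.17 to 0.26, with Akt1 also negative without KO replicate 2 (-0.06). The Pik3ca share difference ranged from -2.17 to 0.491 percentage points, the fold of the Pik3r1 ratio from 1.70 to 1.88 and that of the Pik3ip1 ratio from 2.56 to 5.01. The cause of these shifts was not tested.

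The replicate block gave 488 genes higher and 401 lower, 10 pathway genes higher, and calls for Pik3r1, Pik3r5 and Pik3ip1. Libraries with the same number share only a number in the labels, and their deviations correlated at 0.0397 over 12752 genes. With 2 libraries per group, 26.0% of simulated 2-fold changes were called, which limits what a missed call says. In that simulation 12274 of 12468 genes were unchanged. The adjusted p depends on that share, so the rate of calls may differ in the measured data.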

Other observations

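Other pathway genes that were not called are named here after their values were seen. Foxo3, Txk and Cd28 had an edgeR adjusted p between 0.0502 and 0.0744. The genes named are not a ranked cut. Trib2 (log2 fold change 0.70, edgeR adjusted p = 0.0599) and Sesn3 (0.60, edgeR adjusted p = 0.0623) also lay in that range. Outside it, Sgk3 was lower (-0.74, edgeR adjusted p = 0.0919). With smaller edgeR adjusted p than Sgk3, Pip4k2a (0.71, adjusted p = 0.0778) and Lck (0.60, adjusted p = 0.0808) were higher. So were Plcg1 (0.91, edgeR adjusted p = 0.0859) and Foxo4 (0.69, edgeR adjusted p = 0.0901). Foxo3, a FOXO transcription factor, had 44.2 and 40.4 CPM in WT and 74.3 and 68.9 CPM in KO libraries (0.76 ± 0.16, edgeR adjusted p = 0.0502). Txk, a TEC family kinase of T cells, had 24.5 and 16.7 CPM in WT and 44.4 and 42.1 CPM in KO libraries (1.07 ± 0.22, edgeR adjusted p = 0.0510). Cd28, the costimulatory receptor that recruits PI3K, had 307 and 375 CPM in WT and 500 and 549 CPM in KO libraries (0.62 ± 0.16, edgeR adjusted p = 0.0744). Pik3r2, the second class IA regulatory gene, had 25.4 and 39.0 CPM in WT and 50.0 and 49.1 CPM in KO libraries (0.62 ± 0.23, edgeR adjusted p = 0.153). Pik3ap1, a PI3K adaptor of B cells, had 55.8 and 37.8 CPM in WT and 40.4 and 31.2 CPM in KO libraries (-0.39 ± 0.24, edgeR adjusted p = 0.351).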
